A study of Homo sapiens with 27 samples.

Results

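Gene expression after 48 h with PP242 was compared with that after 24 h in SK-N-BE(2)c, a cell line from human neuroblastoma in which MYCN is amplified. The comparison takes 8 of the 27 arrays of the series, 4 at 24 h and 4 at 48 h, chosen by their labels, and covers 12631 genes. All 8 samples came from cells grown in hypoxia with PP242, which blocks the ATP site of the mTOR kinase in both of its complexes, so the inhibitor and hypoxia are shared and time differs. The other groups used are the solvent DMSO in hypoxia at 24 h (3 arrays) and 48 h (4 arrays), PP242 in hypoxia at 72 h (4 arrays) and a 0 h control (4 arrays), whose label gives neither DMSO nor hypoxia. The dose of PP242 and the oxygen level are not given in the sources used here. The model is 1 cell line, and nothing says that the replicates are separate cultures. The p-values reflect only how far samples spread, in the main fit pooled over all 27 arrays in 7 groups, and that spread may be technical.

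The mTOR kinase works in a pair of complexes. mTORC1 promotes protein, lipid and nucleotide synthesis when nutrients and growth factors are present, and mTORC2 activates AKT and related kinases. Inhibitors of its active site slow growth and entry into the cell cycle. Hypoxia stabilises the HIF transcription factors, which raise glycolytic and angiogenic genes, and HIF translation depends in part on mTORC1. In the cell cycle, E2F factors drive genes of DNA replication in G1 and S phase, while genes of G2 and mitosis are driven through the CHR element and CCAAT boxes of their promoters, bound by the DREAM and MMB complexes and by NF-Y. MTF1 binds metal response elements (MRE) and drives the metallothioneins, small proteins that bind zinc and copper.

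Promoters of 6 genes that were higher at 48 h are shown because their groups, mitosis, DNA replication and the metallothioneins, had the highest list medians and are known to be driven through these elements. They were chosen from genes that changed and hold a match. Each is the 250 bases before the RefSeq start (GRCh38.p14), written 5′ to 3′ on the gene's strand. Capitals mark each match on either strand to CCAAT, to the CHR letters TTTGAA, to an E2F site (TTTCCCGC or TTTGGCGC) or to an MRE (TGCACNC or TGCGCNC), each gene being searched for the elements of its group. A match on the opposite strand reads as the reverse complement.
CCNB1, chr5:69166900-69167149, plus strand: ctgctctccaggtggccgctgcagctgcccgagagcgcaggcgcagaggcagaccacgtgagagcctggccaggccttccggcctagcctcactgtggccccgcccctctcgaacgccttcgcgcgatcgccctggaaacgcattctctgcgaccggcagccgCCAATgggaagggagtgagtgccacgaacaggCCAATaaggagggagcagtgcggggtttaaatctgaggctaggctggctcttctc
PRC1, chr15:90994536-90994785, minus strand: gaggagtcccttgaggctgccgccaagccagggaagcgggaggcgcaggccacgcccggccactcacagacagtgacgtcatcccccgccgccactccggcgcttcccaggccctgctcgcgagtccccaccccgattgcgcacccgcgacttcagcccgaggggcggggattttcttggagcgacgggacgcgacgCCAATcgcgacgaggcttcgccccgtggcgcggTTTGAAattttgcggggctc
TOP2A, chr17:40417897-40418146, minus strand: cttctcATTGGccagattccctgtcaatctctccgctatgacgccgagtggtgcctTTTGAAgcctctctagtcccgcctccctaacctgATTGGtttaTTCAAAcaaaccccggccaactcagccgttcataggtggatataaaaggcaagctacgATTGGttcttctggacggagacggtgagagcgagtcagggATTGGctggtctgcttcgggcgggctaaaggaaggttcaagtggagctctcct
E2F2, chr1:23531234-23531483, minus strand: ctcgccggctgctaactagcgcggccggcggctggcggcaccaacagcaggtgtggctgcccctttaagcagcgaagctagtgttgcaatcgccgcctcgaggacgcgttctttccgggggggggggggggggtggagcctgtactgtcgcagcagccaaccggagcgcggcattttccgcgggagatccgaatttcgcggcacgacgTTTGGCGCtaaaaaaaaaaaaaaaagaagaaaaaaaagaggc
GINS2, chr16:85688955-85689204, minus strand: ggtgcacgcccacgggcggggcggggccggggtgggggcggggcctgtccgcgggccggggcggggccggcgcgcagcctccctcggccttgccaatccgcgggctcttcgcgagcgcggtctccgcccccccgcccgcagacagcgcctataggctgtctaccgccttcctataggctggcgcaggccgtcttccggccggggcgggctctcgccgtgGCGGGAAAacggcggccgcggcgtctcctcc
MT1X, chr16:56682220-56682469, plus strand: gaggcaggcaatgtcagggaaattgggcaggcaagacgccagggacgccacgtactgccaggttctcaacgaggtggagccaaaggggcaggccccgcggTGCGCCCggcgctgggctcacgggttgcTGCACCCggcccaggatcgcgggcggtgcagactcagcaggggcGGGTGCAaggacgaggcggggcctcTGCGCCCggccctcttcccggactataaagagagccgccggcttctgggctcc
In PRC1, the CHR letters begin 20 bases before the start and the CCAAT box 53 bases before it. The CCAAT boxes of CCNB1 begin 87 and 55 bases before its start, and TOP2A holds 4 CCAAT boxes and 2 CHR matches. The E2F match begins 42 bases before the start in E2F2 and 31 bases before it in GINS2, and MT1X holds 4 MREs.

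Array measures overlapped between both groups. The median deposited intensity was between 98 and 113 on the 8 arrays, the background level between 92.4 and 105, and 20729 to 22976 of 48107 probes stood above background. Of 12 neuroblastoma markers, 10 were named on the array, and all 10 were above background on all 8 arrays. Of 25 markers of immune, blood, endothelial, mesenchymal and epithelial cells, 20 were named on the array. Above background on all 8 arrays were 5, CD14, AIF1, ACTA2, PDGFRB and EPCAM, from the immune, mesenchymal and epithelial markers. On none were 3, PTPRC, CDH5 and VWF, which define leukocytes and endothelium. The 14 of these markers that were measured had a mean log2 signal of 5.53 to 5.71 over the 24 h arrays and 5.40 to 5.66 over the 48 h arrays. None of the 14 changed by limma, and their median change was 0.00. An unadjusted p under 0.05 was found for 3, 1 higher and 2 lower, and for 1377 of all 12631 genes. In the fit blocked by sample number 1 of the 14, the matrix protein DCN, fell, where 4.58% of all genes passed. In cultured cells, fewer cells of a type and less RNA per cell cannot be told apart.

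From 24 to 48 h with PP242, 144 of 12631 genes changed (1.14% of genes, limma with Benjamini-Hochberg adjustment at 0.05), 104 of them higher at 48 h (0.823%) and 40 lower (0.317%). Of the genes in 30 lists of pathways and cell types, 44 changed, 43 of them higher, and 25 of these 43 belong to mitosis or DNA replication. The other rises included genes of the heat shock response, metal binding and lipid synthesis and the neuropeptide CRH. Only 1 of the 40 falls, the linker histone H1-2, was in a list, and among the other falls were doublecortin, galectin-1 and integrin beta 5. Changes of at least 2-fold were found for 36 rises and 4 falls. An unadjusted p under 0.05 was found for 1377 of the 12631 genes. With the spread taken from the 8 compared arrays alone and no block, 6 genes passed, 2 higher and 4 lower. Over all genes, the 4 arrays of one group lay wholly above those of the other for 281 that were higher at 48 h (2.22%) and 361 that were lower (2.86%), and 83 of the 144 changed genes were among them. Sample numbers are shared between groups, and arrays of 1 number deviated together, as did some arrays of unlike numbers. With that number as a block the same 144 genes and others passed, 578 in all (4.58%), 341 higher (2.7%) and 237 lower (1.88%). With each array scaled to 1 median in place of quantile normalization, 57 genes passed, 27 higher and 30 lower, while the median over all genes moved only from -0.01 to -0.05.

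The count rests on single arrays. PP242 48 h array 1 lay nearer to the 24 h arrays than its replicates did for many genes, and PP242 24 h array 2 lay nearest to the 48 h arrays. Without the former, 296 genes passed, and without the latter 243. Leaving out any other single array lowered the count, to 58 and 23 and 49 without the 24 h arrays 1, 3 and 4, and to 30, 55 and 76 without the 48 h arrays 2, 3 and 4. In 142 of the 144 genes the direction was the same in 4 of 4 sample numbers.

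Genes of G2 and mitosis were higher at 48 h than at 24 h. Of 38 listed, 37 were measured and 16 rose by limma. None fell, also at an unadjusted p under 0.05, where 29 were higher, and the value was positive for all 37, with a median of 0.86 on the log2 scale against -0.01 over all genes. With the sample number as a block, 27 rose, and with only the 8 PP242 arrays and no block, 0 rose. The mean log2 signal of the 37 genes was 7.04, 7.53, 6.90 and 7.07 on 24 h arrays 1 to 4, and 7.35 on 48 h array 1 against 7.92 to 8.55 on its replicates. The groups overlapped through 24 h array 2 and 48 h array 1. The SD of this mean was 0.27 and 0.52 in the compared groups, 0.05 to 0.22 with DMSO and 0.18 in the control. Without 48 h array 1, 26 of these genes rose, and without any other single array between 4 and 17. The lowest count, 4, came without 24 h array 3 and without 48 h array 2.

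PRC1, which bundles the microtubules of the central spindle, had log2 signals of 8.82, 9.28, 8.58 and 8.48 at 24 h and of 9.34, 10.57, 10.34 and 9.71 at 48 h. All 48 h arrays lay above all 24 h arrays. The largest rises and falls were named only from genes without overlap of the arrays. For those genes, PRC1, TPX2, CCNB1, CENPA and DNAJB1 among them, the separation was required and is no result. Its rise was 1.20 (SE 0.19, 2.30-fold, adjusted p = 0.00272, limma), higher in 4 of 4 sample numbers. TPX2, which activates Aurora A on the spindle, had 6.62, 7.40, 6.59 and 6.71 at 24 h against 7.42, 8.69, 8.28 and 7.88 at 48 h. The groups were again apart, narrowly between 24 h array 2 and 48 h array 1, and the rise was 1.24 (SE 0.22, adjusted p = 0.00520). CCNB1, the cyclin that starts mitosis with CDK1, rose by 1.08 (SE 0.19, adjusted p = 0.00633) from 7.12, 7.47, 6.89 and 7.46 to 7.63, 8.63, 8.59 and 8.39.

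CENPA, the histone H3 variant of centromeres, rose by 1.41 (SE 0.29, adjusted p = 0.0126) with no overlap of the arrays. BIRC5, the chromosomal passenger protein survivin, rose by 1.28 (SE 0.22, adjusted p = 0.00520), from 6.52, 7.05, 6.25 and 6.61 to 6.97, 8.31, 8.30 and 7.98. Here 48 h array 1 fell below 24 h array 2, so the groups overlapped. Dimmer second probes gave 0.68 for CENPA and 0.69 for BIRC5. Neither passed by limma over all kept probes (adjusted p = 0.353 and 0.195). TOP2A, the topoisomerase that untangles chromosomes, rose by 1.35, and AURKA and AURKB, the mitotic Aurora kinases, by 1.11 and 1.29. PBK and MELK, kinases of dividing cells, rose by 1.52 and 1.51, and DLGAP5, a spindle protein, by 1.25. CCNA2, the cyclin of S and G2 phase, rose by 1.08 and NUSAP1, a spindle protein, by 1.14. Smaller rises were measured for the kinesins KIF11 (0.94) and KIF2C (0.73) and for BUB1B, a kinase-like protein of the spindle checkpoint (0.65). Outside the list, the condensin II subunit NCAPG2 rose by 1.04 (SE 0.22, adjusted p = 0.0148), the tubulin TUBB4B by 1.02 (SE 0.18, adjusted p = 0.00568) and FAM72D by 1.10 (SE 0.22, adjusted p = 0.0126). Probes of near-identical tubulins and FAM72 copies may share signal.

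Genes of DNA replication and G1/S were also higher at 48 h. Of 44 listed, 39 were measured and 9 rose by limma. None fell, also at an unadjusted p under 0.05, where 31 were higher. The value was positive for 37, and the median was 0.64. With the sample number as a block, 22 rose, and with only the 8 PP242 arrays and no block, 0 rose. Without 48 h array 1 the count was 21, without 24 h array 2 it was 19, and without any other single array between 0 and 4, with 0 without 24 h array 3 and without 48 h array 2. The mean log2 signal of the list was 7.87 on 24 h array 2 against 7.04 to 7.27 on the other 24 h arrays, and 7.57 on 48 h array 1 against 7.91 to 8.37 on the others.

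E2F2, an activating E2F factor, had 5.88, 7.17, 5.72 and 5.96 at 24 h and 6.73, 7.97, 8.21 and 7.60 at 48 h. The groups overlapped only through 24 h array 2 and 48 h array 1, and the rise was 1.45 (SE 0.29, 2.73-fold, adjusted p = 0.0120). MCM10, which helps to start replication forks, rose by 1.36 (SE 0.26, adjusted p = 0.00911), from 7.0, 8.13, 6.29 and 6.91 to 7.82, 8.90, 8.54 and 8.51. CDC45 and GINS2, parts of the replicative helicase, rose by 1.33 and 1.00. FEN1, the flap endonuclease, rose by 1.12, TK1, thymidine kinase, by 1.11, TIMELESS, a protein of the fork, by 0.87, and RFC5, a clamp loader subunit, by 0.80. CHAF1A, a subunit of the histone chaperone CAF-1, rose by 0.86 (SE 0.18, adjusted p = 0.0139) and was above background on 2 of 4 arrays at 24 h and all 4 at 48 h. PCNA, the sliding clamp, and UHRF1, which maintains DNA methylation, had 1.19 (adjusted p = 0.152) and 1.28 (adjusted p = 0.0710), and did not pass by limma. Both passed with the sample number as a block (adjusted p = 0.00936 and 0.0158) and without 24 h array 2 (adjusted p = 0.0156 and 0.00504). Dimmer second probes gave 1.08 for MCM10, 0.64 for FEN1, 0.24 for UHRF1 and 0.19 for PCNA. None of these probes passed by limma over all kept probes. UBE2T, a ubiquitin-conjugating enzyme of the Fanconi anaemia pathway outside the list, rose by 1.34 (SE 0.31, adjusted p = 0.0263).

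Of 30 mitosis genes with a promoter in the RefSeq table, 15 held the CHR letters (50%) and 24 a CCAAT box (80%). Over the 9944 genes tested that have a promoter there, the shares were 9.31% and 35.1%. Of 36 replication genes, 14 held an E2F match (38.9%), against 2.96% of genes tested, and over all 27305 promoters the shares were 13.6% for CHR, 33% for CCAAT and 1.96% for E2F. Among the members that rose, an E2F match was in 2 of 9 replication genes (22.2%). The CHR letters were in 6 of 12 mitosis genes that rose (50%) and a CCAAT box in 9 (75%). These shares describe the letters of this window, and no test was made.

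**Figure D1:**
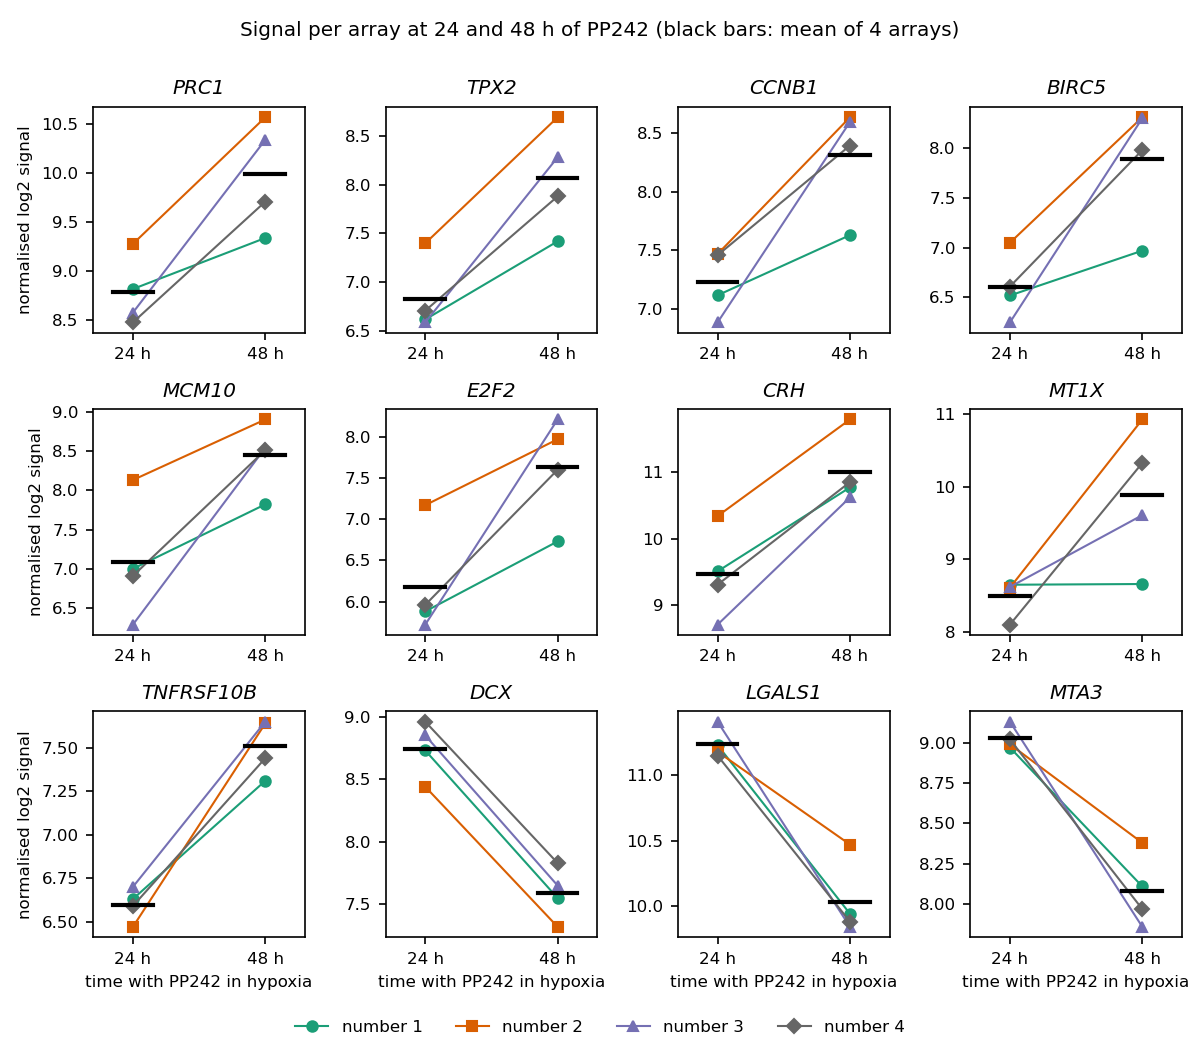
Normalised log2 signal (y axis) of 12 genes in each PP242 array at 24 and 48 h (x axis). Lines join arrays with the same sample number and black bars are means of 4 arrays. The line of number 1 is the lowest at 48 h in the mitosis genes, and MT1X of number 1 stayed at 8.65 and 8.66, while DCX, LGALS1 and MTA3 fell in 4 of 4 numbers.

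Cyclin and chromatin genes outside these lists moved in both directions. CCND3, a D-type cyclin in the list of quiescence and CDK regulators, was the only one of its 14 measured members that rose, by 0.97 (SE 0.20, adjusted p = 0.0126), and 2 rose with the sample number as a block. CCND3 promotes the cell cycle and is not a CDK inhibitor. Among 15 measured histone genes, H2AX, which marks DNA breaks when phosphorylated, rose by 0.74 and the linker histone H1-2 fell by 0.80, while with the block 2 rose and 1 fell.

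CRH, corticotropin-releasing hormone, had the largest rise among genes that changed. Its log2 signals were 9.51, 10.34, 8.71 and 9.31 at 24 h and 10.77, 11.79, 10.62 and 10.85 at 48 h, with no overlap. Like the other largest rises, CRH was named from genes without overlap, so this gap was required. The rise was 1.54 (SE 0.34, 2.91-fold, adjusted p = 0.0189), in 4 of 4 sample numbers. HTR1E, a serotonin receptor, rose by 1.00 (SE 0.20, adjusted p = 0.00911), from 6.05 to 6.60 at 24 h to 7.10 to 7.66 at 48 h.

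Of 10 listed metallothioneins and partners, 7 were measured and 2 rose, or 4 with the sample number as a block. All 7 values were positive, with a median of 0.99. MT1X had 8.65, 8.61, 8.62 and 8.10 at 24 h and 8.66, 10.93, 9.61 and 10.33 at 48 h, a rise of 1.39 (SE 0.34, adjusted p = 0.0352). In 48 h array 1 it was at the 24 h level. MT1G rose by 1.5 (SE 0.37, adjusted p = 0.0430), from 7.55 to 8.37 at 24 h to 10.52, 9.25 and 10.24 on 3 of the 48 h arrays, while 48 h array 1 had 7.56. It was higher in 3 of 4 sample numbers. Probes of near-identical metallothioneins may share signal, so the members are not independent. An MRE was found in the promoters of 3 of 3 members in the RefSeq table and of 31.9% of genes tested.

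Stress response genes gave single rises. Of 18 measured heat shock and chaperonin genes, 3 rose, and the list median was 0.06. They were the HSP70 partner DNAJB1 (0.93, SE 0.22, adjusted p = 0.0297), the HSP110 gene HSPH1 (0.68) and the HSP90 gene HSP90AA1 (0.47), each with no overlap between groups. The letters of a heat shock element (GAANNTTC, searched on both strands) were in the promoters of 4 of 17 measured members in the RefSeq table (23.5%), of 0 of these 3 and of 4.23% of genes tested. HMOX1, heme oxygenase and 1 of 15 measured NRF2 targets, rose by 1.25 (SE 0.30, adjusted p = 0.0308), from 5.22, 5.30, 4.79 and 5.18 to 5.32, 6.86, 5.92 and 7.41. It was above background on 1 of 4 arrays at 24 h, so its low level is close to the limit of the array. All 15 NRF2 targets had positive values, with a median of 0.31, and 3 rose with the sample number as a block. Of 28 lysosome and autophagy genes, the autophagy receptor SQSTM1 rose by 0.67 (SE 0.13, adjusted p = 0.00911) and the galactosidase GLA by 0.83, and with the block 2 rose and 1 fell. PSMD2, a subunit of the proteasome cap, rose by 0.66 as 1 of 23 proteasome genes (5 with the block), whose median was 0.25.

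Lists of lipid and amino acid metabolism gave 4 rises. Of 17 cholesterol synthesis genes, HMGCS1, which makes the precursor of mevalonate, rose by 0.92 (SE 0.22, adjusted p = 0.0297), from 8.68, 9.27, 8.30 and 8.56 to 9.14, 9.96, 9.34 and 10.07. With the block 4 rose, and the list median was 0.24. Of 13 fatty acid genes, FASN, fatty acid synthase, and TECR, an enzyme of chain elongation, each rose by 0.52 (adjusted p = 0.0499 and 0.0308), and with the block 3 rose and 1 fell. Of 30 ATF4 targets, SLC7A5, the large neutral amino acid transporter, rose by 0.63 (adjusted p = 0.0296), and 7 rose with the block.

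TNFRSF10B, the TRAIL death receptor DR5 and 1 of 19 measured p53 targets and apoptosis genes, rose by 0.91 (SE 0.13, 1.88-fold, adjusted p = 0.000744). Its signals were 6.63, 6.47, 6.70 and 6.59 at 24 h and 7.31, 7.64, 7.65 and 7.44 at 48 h, with narrow groups that were well apart. A dimmer second probe of the gene gave 0.03. Of 34 sympathoadrenal and neuronal genes, TH, tyrosine hydroxylase of catecholamine synthesis, rose by 0.66 (SE 0.15, adjusted p = 0.0279), from 6.80 to 7.03 at 24 h to 7.18 to 7.86 at 48 h. STMN4, a stathmin of neurons, was not above background on any 24 h array and was on all 4 at 48 h. Its mean was 4.94 at 24 h and 5.56 at 48 h, which gives at least 1.19-fold higher signal against the lowest signal above background (adjusted p = 0.0139). The list median was 0.04, and with the block 3 of these genes rose and 2 fell.

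The falls were mostly of genes outside the lists. The largest falls, named here and in the next paragraph, were taken from genes without overlap of arrays. A gap between their groups was therefore required and is no result. LGALS1, galectin-1, which binds galactosides on the cell surface, had 11.23, 11.18, 11.41 and 11.15 at 24 h and 9.94, 10.47, 9.84 and 9.88 at 48 h, a fall by 1.21 (SE 0.16, 2.32-fold lower, adjusted p = 0.000237). DCX, doublecortin, a microtubule protein of young neurons, had 8.73, 8.44, 8.85 and 8.96 at 24 h and 7.55, 7.32, 7.65 and 7.83 at 48 h. The groups were far apart, and the fall by 1.16 (SE 0.12, 2.23-fold lower, adjusted p = 4.73e-06) had the smallest p of all genes tested. PTPRK, a receptor tyrosine phosphatase, fell by 1.14 (SE 0.20, adjusted p = 0.00520), from 6.76, 6.24, 7.12 and 6.65 to 5.60, 5.33, 5.99 and 5.28.

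NELL1, a secreted protein, fell by 1.02 (SE 0.20, adjusted p = 0.0120), from 6.43 to 7.47 at 24 h to 5.26 to 6.12 at 48 h. MTA3, a subunit of the NuRD chromatin complex, had 8.97, 8.99, 9.13 and 9.02 at 24 h and 8.11, 8.38, 7.86 and 7.97 at 48 h, a fall by 0.95 (SE 0.15, adjusted p = 0.00272). CNN2, an actin-binding calponin, fell by 0.87 (SE 0.14, adjusted p = 0.00310) from a range of 6.88 to 6.98 to one of 5.95 to 6.30. RAB3IL1, an exchange factor for Rab GTPases, fell by 0.78 with similarly narrow groups, 7.02 to 7.23 at 24 h and 6.28 to 6.44 at 48 h. ITGB5, integrin beta 5, fell by 0.81 (SE 0.17, adjusted p = 0.0139), and its other probes gave -0.98 and -0.50. TMEM204 fell by 0.87 and TMEM44 by 0.79. CCDC24 fell by 0.77 and was above background on 1 of 4 arrays at 48 h. H1-2 had 10.25, 9.94, 10.53 and 10.36 at 24 h and 9.85, 9.50, 9.21 and 9.31 at 48 h, a fall by 0.80 (SE 0.16, adjusted p = 0.0117) with no overlap.

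No gene of the hypoxia, mTOR and growth lists passed by limma without the block. As a reference for the counts below, 1377 of all 12631 genes had an unadjusted p under 0.05, and 4.58% passed with the block. None of the 29 hypoxia genes outside glycolysis changed (2 rose with the block, and 5 had an unadjusted p under 0.05, 4 higher and 1 lower), and their median was 0.04. Of 20 glycolysis genes, 19 had positive values with a median of 0.21, and 1 was higher at an unadjusted p under 0.05. VEGFA, the main angiogenic factor of hypoxia, had 8.53, 8.47, 8.95 and 8.39 at 24 h and 8.93, 8.99, 9.49 and 8.35 at 48 h, a difference of 0.36 (SE 0.21, adjusted p = 0.593). EPAS1, which encodes HIF-2 alpha, had 0.55 (SE 0.28, adjusted p = 0.485) and was higher in 4 of 4 sample numbers with overlapping groups. HIF1A had -0.10 (adjusted p = 0.950), where 24 h array 4 stood at 9.64 against 8.76 to 8.85. DDIT4, the hypoxia-induced brake on mTORC1 known as REDD1, had 0.58 (SE 0.23, adjusted p = 0.272).

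Of 23 mTOR pathway genes, none changed (1 rose with the block, and 2 were higher at an unadjusted p under 0.05), and the list median of 0.06 came to 0.00 when arrays were scaled to 1 median. MTOR had 0.27 (SE 0.21, adjusted p = 0.751). RICTOR, the defining subunit of mTORC2, had 0.06 and was above background on 1 of 4 arrays at 24 h and 1 of 4 at 48 h, so its level was at the limit of the array. MYCN had signals between 13.87 and 14.46 at 24 h and between 13.91 and 14.38 at 48 h, with a difference of -0.01 (SE 0.17, adjusted p = 0.996). These signals lie near the top of the range of the arrays, and whether they were saturated was not tested. A dimmer second probe of MYCN gave -0.08. The median was -0.12 over 29 MYC targets and ribosome biogenesis genes, 0.09 over 35 cytosolic ribosomal proteins, 0.05 over 24 translation factors and -0.05 over 15 aminoacyl-tRNA synthetases. No gene of these lists changed by limma, apart from 1 MYC target or ribosome biogenesis gene that fell with the block. At an unadjusted p under 0.05 they held 3, 1, 2 and 1 genes, where 1377 of all 12631 genes had such a p.

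The remaining lists held no gene that changed by limma without the block. Their counts stand beside 1377 of all 12631 genes with an unadjusted p under 0.05 and 4.58% that passed with the block. Of 17 genes of the unfolded protein response and ER folding (median 0.27), 2 rose with the block and 7 had an unadjusted p under 0.05. Of 24 immediate early and ERK feedback genes (0.13), 2 rose with the block and 4 had such a p. With the block, 1 of 15 angiogenic factors (-0.02) and 1 of 19 mesenchymal and neural crest genes (0.07) fell, and each list had 2 such genes. With the block, 1 of 19 interferon genes (-0.05) and 1 of 23 FOXO targets (-0.00) rose, and each list had 1 such gene. Among 38 genes of oxidative phosphorylation (0.03) and 12 HIF subunits and oxygen sensors (0.02), no gene changed with or without the block, and 1 and 0 had an unadjusted p under 0.05.

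**Figure D2:**
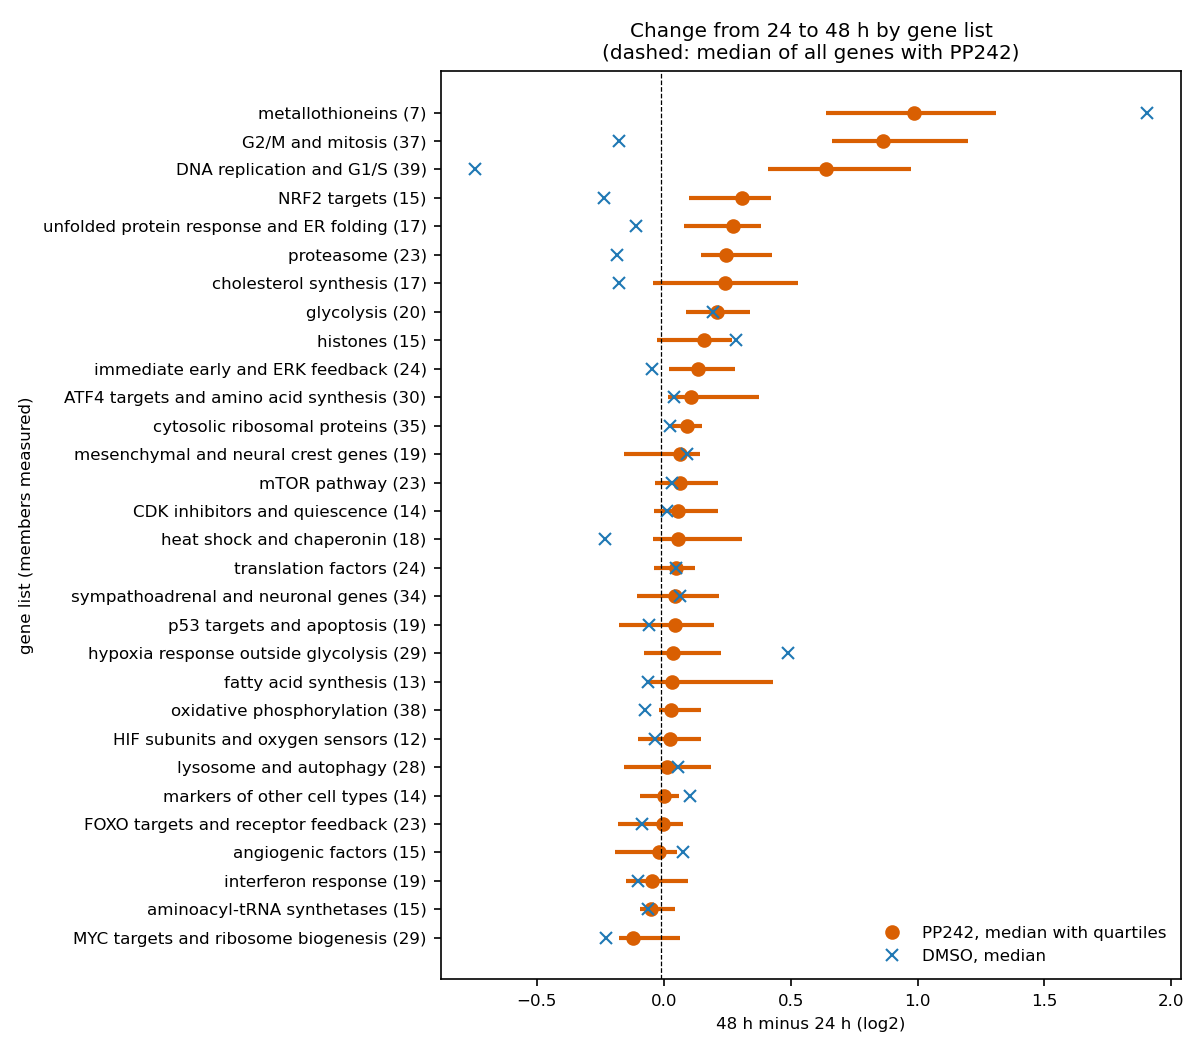
Change in log2 signal from 24 to 48 h (x axis) for each of 30 gene lists (y axis, measured members in brackets). Orange points are medians with PP242 with lines from the lower to the upper quartile, and crosses are medians with DMSO. Metallothioneins, mitosis and replication stand highest with PP242, at 0.99, 0.86 and 0.64, and with DMSO the same lists lie at 1.91, -0.17 and -0.74.

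The same interval was measured without the inhibitor. From 24 to 48 h with DMSO, 513 genes changed (4.06%), 293 higher (2.32%) and 220 lower (1.74%), or 1279 with the sample number as a block (10.1%). No array is shared with the PP242 comparison. The median size of the change over all genes was 0.17 with DMSO and 0.13 with PP242. Across the 12631 genes, the changes had a Pearson correlation of -0.235 and a Spearman correlation of -0.209. This is a description over genes, which are not independent. Of the 104 genes that rose with PP242, 82 had a lower value at 48 h than at 24 h with DMSO and 14 of these fell there, and of the 40 that fell, 32 had a higher value with DMSO and 3 rose there. The median DMSO change was -0.28 over the rises and 0.15 over the falls, against -0.002 over all genes. Of the 144 genes that changed with PP242, 23 also changed with DMSO, where 4.06% of all genes did. Of these 23, 6 moved in the same direction and 17 in the opposite one.

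The change with PP242 differed from that with DMSO for 640 genes (5.07%, limma interaction term), with 339 more positive (2.68%) and 301 more negative (2.38%) with PP242. With the sample number as a block there were 1504 (11.9%). Among the 144 genes that changed with PP242, 104 were in this set. The interaction term contains the PP242 change that picked these genes, so part of this overlap is built in and nothing is read from it. Of 39 DNA replication genes, 28 were more positive with PP242 (33 with the block), and 12 fell with DMSO itself. FEN1 rose by 1.12 with PP242 and fell by 1.40 with DMSO, a difference of 2.52 (SE 0.40, adjusted p = 0.000584). The difference was 2.39 for E2F2, 2.35 for MCM10, 2.41 for UHRF1, 2.34 for PCNA and 2.29 for UBE2T. FEN1 and these genes were named for the size of this difference. Of 37 mitosis genes, 15 differed (22 with the block) and none changed with DMSO by limma (4 were lower at an unadjusted p under 0.05), where the median was -0.17. The differences were 1.21 for PRC1 (SE 0.28, adjusted p = 0.0121) and 1.97 for BIRC5 (SE 0.33, adjusted p = 0.000756). CCND3 and TUBB4B also fell with DMSO, by 1.02 and 1.00.

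Metallothioneins, TNFRSF10B and CRH had positive values under both treatments. MT1G rose by 2.97 with DMSO against 1.5 with PP242, a difference of -1.47 (SE 0.55, adjusted p = 0.130), and 5 of 7 metallothioneins rose with DMSO. TNFRSF10B rose by 0.92 with DMSO and 0.91 with PP242, a difference of -0.01 (SE 0.19, adjusted p = 0.992). The DMSO change of CRH was 0.92 (adjusted p = 0.175) and its difference 0.62 (SE 0.50, adjusted p = 0.578). A p above the threshold does not show that these changes were alike.

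Among the genes with the most negative differences, 6 rose with DMSO. DDIT3, the stress transcription factor CHOP, had 8.25, 7.57, 8.55 and 8.25 at 24 h with PP242 and 7.77, 7.60, 6.97 and 7.37 at 48 h, a value of -0.72 (SE 0.24, adjusted p = 0.170). With DMSO it rose by 2.42, and the difference was -3.15 (SE 0.36, adjusted p = 6.40e-06). KCNIP4, a potassium channel interacting protein, had -0.54 with PP242 and rose by 1.68 with DMSO, a difference of -2.22, although its other probes gave -0.20 and 0.04 with PP242. ZNF467, a zinc finger protein, had -0.24 with PP242 and rose by 1.95 with DMSO. H1-2 fell by 0.80 with PP242 and rose by 1.32 with DMSO, a difference of -2.12 (SE 0.24, adjusted p = 5.97e-06). ATF5, a stress transcription factor, and ACTA2, smooth muscle actin and a marker of contractile cells, had differences of -2.06 and -1.99. VEGFA rose by 1.52 with DMSO, a difference of -1.16 (SE 0.31, adjusted p = 0.0269), and 4 of 29 hypoxia genes had a more negative change with PP242 (9 with the block), 9 having risen with DMSO.

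**Figure D3:**
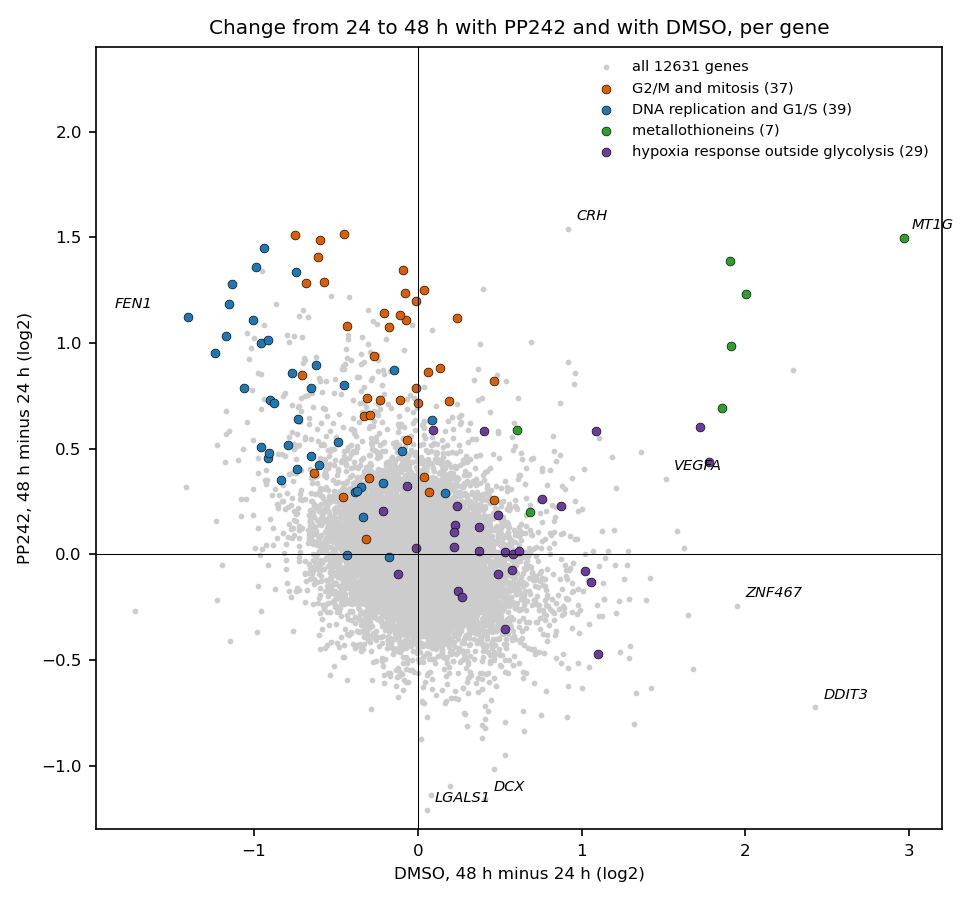
Change in log2 signal from 24 to 48 h with DMSO (x axis) and with PP242 (y axis) for 12631 genes in grey, with 4 gene lists in colour. Most replication genes lie above and to the left of 0, metallothioneins above and to the right, and DDIT3 lies at 2.42 with DMSO and -0.72 with PP242.

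Levels in the other groups place the change. The mean log2 signal of the mitosis list was 9.03 in the 0 h control and 9.08, 8.89 and 8.05 with DMSO at 24, 48 and 72 h. With PP242 it was 7.14 ± 0.27 (SD, n = 4) at 24 h, 8.02 ± 0.52 at 48 h and 8.28 ± 0.27 at 72 h. The 48 h level was therefore between the 24 h level and that of DMSO at 48 h. The replication list had 9.02 in the control, 8.98, 8.29 and 7.53 with DMSO and 7.32, 8.01 and 8.11 with PP242. At 48 h its PP242 arrays (7.57 to 8.37) overlapped those of DMSO (8.11 to 8.51). Metallothioneins had 5.64 in the control, 6.45, 8.16 and 8.64 with DMSO and 6.71, 7.65 and 6.49 with PP242, so their mean at 72 h was below that at 48 h.

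From 48 to 72 h with PP242, 1 gene passed (0.00792%), GPX3, a secreted glutathione peroxidase, which rose by 1.03, and 14 passed with the block (0.111%). The median 72 h change was 0.21 over the 104 genes that had risen and -0.10 over the 40 that had fallen. These values share the 48 h arrays with the comparison of 48 h with 24 h. DCX stood at 7.51 at 72 h, LGALS1 at 9.31, PTPRK at 5.40 and NELL1 at 5.48. For DCX the 24 h level with PP242 (8.74) was above the control (7.71) and DMSO at 24 h (7.61), and the 48 h level (7.59) was below DMSO at 48 h (8.02). LGALS1 was at 11.24 at 24 h with PP242 and 11.00 with DMSO, and at 10.03 and 11.05 at 48 h.

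**Figure D4:**
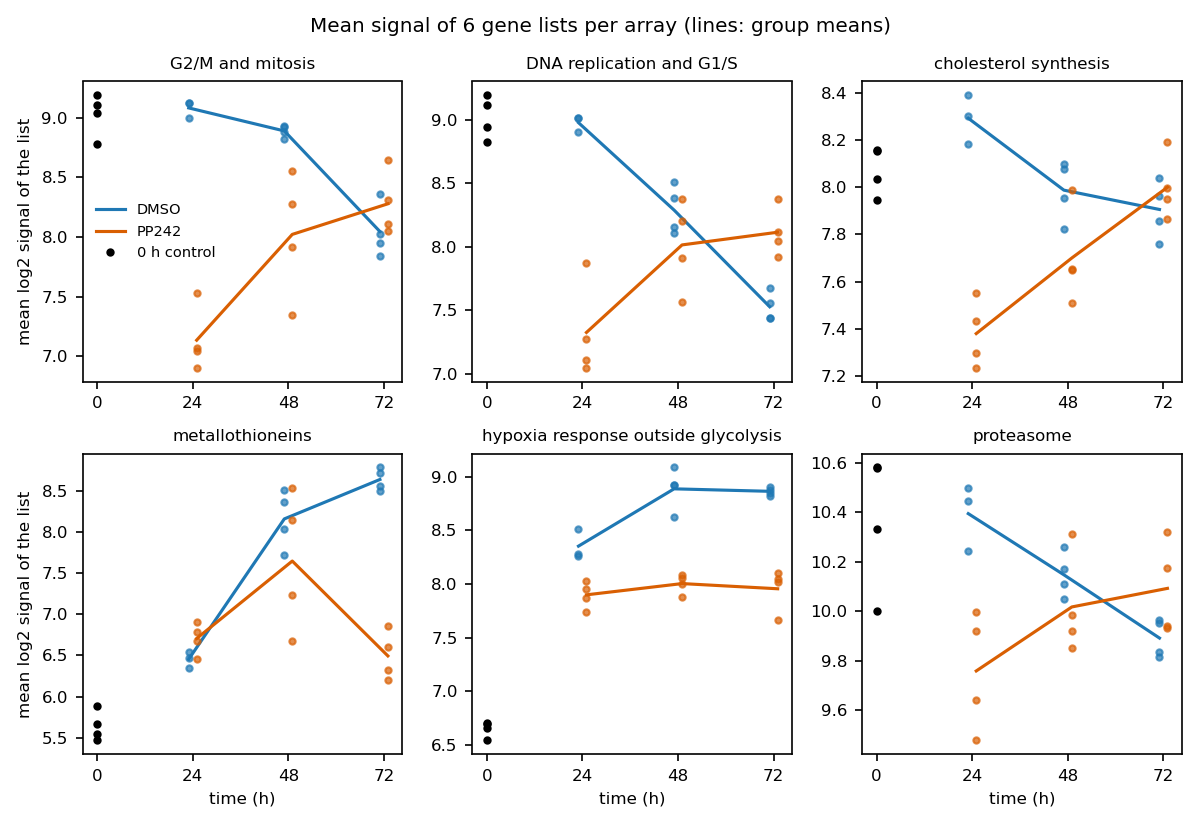
Mean log2 signal (y axis) of 6 gene lists by time (x axis, h). Points are arrays, lines join the means of DMSO and PP242 groups, and black points are the 0 h control. The mitosis list with PP242 had means of 7.14, 8.02 and 8.28, and the metallothionein list with PP242 had its highest mean, 7.65, at 48 h.

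**Figure D5:**
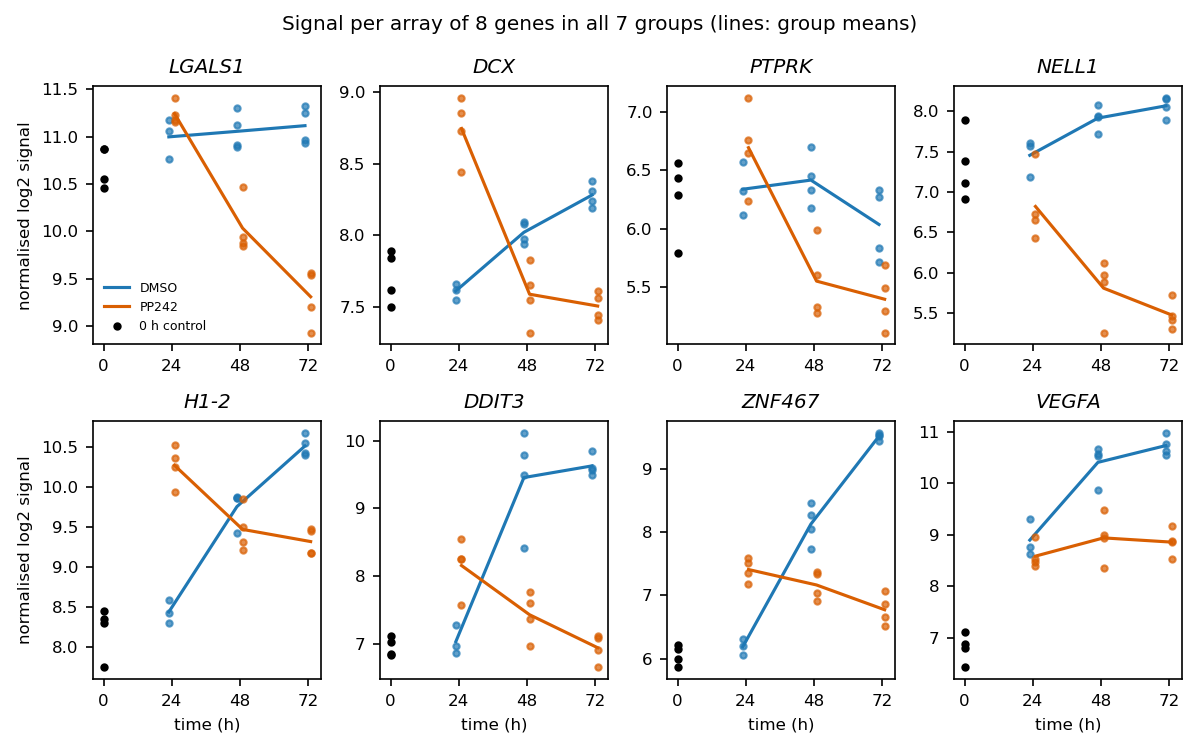
Log2 signal (y axis) of 8 genes by time (x axis, h). Points are arrays, lines join the means of DMSO and PP242 groups, and black points are the 0 h control. LGALS1 fell with PP242 from 11.24 to 10.03 to 9.31 and had 11.00, 11.05 and 11.11 with DMSO, while DDIT3 had 9.45 with DMSO and 7.43 with PP242 at 48 h.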

How the data were processed

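Total RNA was labelled with biotin and hybridised to Illumina arrays, per the labels' protocols. The deposited table gives linear signal intensity of 48107 probes on 27 arrays, per the file headers not normalized, with 0 unmapped columns and without detection p-values. A value table of 27367 probes holds the authors' processed intensity and served as an alternative.

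Intensities were corrected by normexp (offset 16), taken to log2 and quantile normalized. For each array, a normal background was centred on the peak of its signal density (bandwidth 1.5), its SD taken from signals below that peak. A probe was kept if 3 or more arrays exceeded this background at p under 0.05 (31212 probes, of which 14802 had no name). The annotation gave 1 symbol for 23495 probes, several for 1 and none for 3871. The brightest kept probe stood for each of 12631 genes (9675 had 1 kept probe). One model over 7 groups was fitted with limma 3.58.1 (R 4.3.3), with Benjamini-Hochberg adjustment at 0.05. SE is the moderated standard error. Alternatives changed the correction, scaling, filter, probe rule, model and arrays. The fit was tested on simulated data.

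Sample number served as the block. After group means were removed, arrays of the same number correlated across genes by 0.408, 0.525, 0.229 and 0.573 between both PP242 groups. Between both DMSO groups, which lack number 4 at 24 h, the values were 0.173, 0.185 and 0.299. Unlike numbers gave -0.485 to 0.311 with PP242 and -0.305 to 0.248 with DMSO. With PP242, number 3 at 24 h correlated more with number 4 at 48 h (0.295) than with number 3, so the pairing is not clean. Blocked counts of members called stand beside the list counts they change for PP242 at 48 h against 24 h.

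Named genes were the 12 largest rises and falls without overlap of arrays (symbols starting with LOC or holding orf were passed over), up to 4 members per list by p, the 6 largest differences from DMSO each way, and EPAS1, HIF1A, VEGFA, MYCN, MTOR, RICTOR and DDIT4. Further changed members of the mitosis and replication lists were added after their values were seen. The groups and the 30 lists, written from textbook knowledge, were chosen with earlier results of these data known.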

Additional observations from a re-analysis of the deposited data

Results flagged for a closer look

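A single array stood apart from the other 3 of its group in 12 of 210 groups of 4 arrays examined, by the ratio of its gap to the range of the group. Chance gives about 1 in 20, and the count is near that share. Genes that move together flag the same array, so these groups are not independent. In PP242 24 h array 2 the signal was high for TPX2 (7.40 against 6.59 to 6.71, ratio 0.848), TUBB4B (9.06 against 8.32 to 8.40, 0.884), E2F2 (7.17 against 5.72 to 5.96, 0.837), BUB1B (6.42 against 5.86 to 5.93, 0.864), PBK (7.55 against 6.20 to 6.29, 0.932) and TH (7.03 against 6.80 to 6.84, 0.831). In PP242 24 h array 4 it was low for MT1X (8.10 against 8.61 to 8.65, 0.919) and FASN (10.33 against 10.86 to 10.89, 0.946) and high for HIF1A (9.64 against 8.76 to 8.85, 0.897). The mean of the fatty acid synthesis list was also low there (8.60 against 8.71 to 8.73, 0.844). In PP242 48 h array 1 DLGAP5 was low (7.31 against 8.62 to 8.84, 0.854), and in PP242 48 h array 2 LGALS1 was high (10.47 against 9.84 to 9.94, 0.855). Whether anything sets these arrays apart was not tested.

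For 56 of the 75 genes examined, the change from 24 to 48 h with PP242 differed from that with DMSO (adjusted p under 0.05, limma interaction term), 39 more positive and 17 more negative with PP242. Most of the 75 were named for their change with PP242 or for the size of this difference, so nothing is read from that count, and over all genes the term passed for 640 of 12631 (5.07%). Values are log2 differences, PP242 change minus DMSO change. The most positive differences were those of FEN1 (2.52), UHRF1 (2.41), E2F2 (2.39), MCM10 (2.35), PCNA (2.34), UBE2T (2.29), MELK (2.26) and TK1 (2.11). Next came CDC45 (2.08), CENPA (2.02), TUBB4B (2.02), CCND3 (1.99), PBK (1.97), BIRC5 (1.97), GINS2 (1.96) and AURKB (1.86). Differences of an intermediate size belonged to H2AX (1.68), CHAF1A (1.62), HMGCS1 (1.61), CCNA2 (1.51), NCAPG2 (1.46), TOP2A (1.44), HSPH1 (1.39) and FAM72D (1.38). Smaller ones were found for DNAJB1 (1.36), NUSAP1 (1.35), TPX2 (1.31), RFC5 (1.25), CCNB1 (1.25), PRC1 (1.21), KIF11 (1.20) and AURKA (1.18). The least positive were those of GLA (1.11), TIMELESS (1.02), BUB1B (0.98), HSP90AA1 (0.92), SLC7A5 (0.85), FASN (0.75) and SQSTM1 (0.70).

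The most negative were those of DDIT3 (-3.15), KCNIP4 (-2.22), ZNF467 (-2.19), H1-2 (-2.12), ATF5 (-2.06), ACTA2 (-1.99), DCX (-1.57) and MTA3 (-1.48). They were followed by NELL1 (-1.48), TMEM44 (-1.32), LGALS1 (-1.27), CNN2 (-1.26), PTPRK (-1.22), ITGB5 (-1.20), RAB3IL1 (-1.19) and VEGFA (-1.16). The last was that of TMEM204 (-0.89).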

How the results depend on the processing

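The 46 named genes that changed kept their direction under all 20 settings each, and 4 of them (CNN2, DCX, LGALS1 and MTA3) passed under all 20. A further 9 failed only in the fit of the 8 PP242 arrays without a block, so that 13 passed under all the others. That fit kept 5 of the 46 calls, and the same arrays with the block kept 41. The count of 144 genes became 57 with arrays scaled to 1 median (27 higher, 30 lower), 6 with only the 8 PP242 arrays, 305 with those arrays and the replicate block, and 578 with the replicate block over all arrays. The share of rises among the calls, 72.2%, was 60.2% with an offset of 50, 56.7% without background correction, 56.2% in the authors' table and 59.0% with the replicate block. The 44 list members became 16 (1 median), 1 (8 arrays), 71 (8 arrays, replicate block) and 105 (replicate block). The 9 replication genes became 3, 0, 17 and 22, and the 16 mitosis genes 10, 0, 24 and 27, in the same order. The cause of the smaller counts with 1 median, or with only the 8 PP242 arrays and no block, was not tested. For the difference from DMSO, 640 became 1504 with the replicate block. The replicate block ended no call of a named gene.

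Leaving out single arrays gave 23 to 243 genes (24 h arrays) and 30 to 296 (48 h arrays), 6 to 63 and 6 to 80 list members, 0 to 19 and 0 to 21 replication genes and 4 to 17 and 4 to 26 mitosis genes. For the difference from DMSO it gave 406 to 770 genes (PP242 arrays) and 340 to 747 (DMSO arrays). An alternative added after the data were seen left each sample number, 1 to 4, out of both PP242 groups in the fit with the replicate block. It gave 526, 362, 146 and 187 genes, 122, 75, 37 and 40 list members, 27, 21, 3 and 7 replication genes, 14 to 29 mitosis genes and 1371, 1250, 1046 and 1139 genes for the difference. Signs turned only for genes that did not pass. HIF1A had 0.11 without PP242 24 h array 4 (-0.19 to 0.11 over 24 h arrays) and 0.03 without 48 h array 2 (-0.25 to 0.03). MYCN had 0.06 and 0.08 without 24 h arrays 1 and 2 (-0.12 to 0.08) and 0.09 without 48 h array 4 (-0.07 to 0.09). RICTOR had -0.02 without 24 h array 2 (-0.02 to 0.16). The medians of the mitosis, replication and metallothionein lists stayed positive under 5 other scalings, with lowest values of 0.67, 0.42 and 0.59. Signal near background limits HMOX1, CHAF1A, CCDC24, STMN4 and RICTOR.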

Other observations

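Kept probes without a gene name also moved. When all 31212 kept probes were tested together by limma, 24 unnamed probes were higher and 10 lower at 48 h, beside 64 and 28 named ones, and the genes behind the former were not analysed here.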
